A study of Homo sapiens with 8 samples.

Results

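The IL1 family comprises secreted cytokines, their receptors and their natural inhibitors, and 9 of its genes were followed here in MDA-MB-231 cells after HMGA1 silencing. They were the ligands IL1A, IL1B, IL18 and IL33, the receptor antagonist IL1RN, the signalling receptors IL1R1 and IL1RL1, the co-receptor IL1RAP and the decoy receptor IL1R2. Every probe set (a group of short probes read together as one signal) that the platform annotation gives to a single one of these genes was used. This gave 21 of the 54613 probe sets that are not controls, standing for 9 of 19775 named genes.

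IL1A and IL1B bind the same receptor, IL1R1, which then recruits IL1RAP and passes the signal through the adaptor MYD88 and the IRAK kinases to NF-kappaB and the MAP kinases. IL1RN occupies IL1R1 without starting a signal, and IL1R2 binds ligand but lacks the part that signals. IL18 and IL33 are related cytokines with receptors of their own, that of IL33 being IL1RL1, also called ST2, which pairs with IL1RAP. In tumours the pathway is known for the chemokines and other inflammatory mediators it induces, and IL1B and IL18 are made as precursors that caspase-1 cuts inside inflammasomes.

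MDA-MB-231 is an established human basal-like breast cancer cell line described as oestrogen receptor-negative, and it was the single line used. The siCTRL group (4 arrays) received a control siRNA and the siHMGA1 group (4 arrays) one directed at HMGA1, at 100 nM by the study's methods, and RNA was taken after 72 h by the sample labels. HMGA1 is a non-histone chromatin protein whose AT-hooks contact AT-rich DNA. Both groups received siRNA, no untransfected cells were analysed here, and the HMGA1 siRNA of the methods' array section is a single sequence aimed at the coding region. The labels call the arrays biological replicates A to D and give no detail on separate cultures, so p-values here reflect only the spread from array to array.

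Values are log2 signals from whole-genome Affymetrix arrays, on which a difference of 1 is a doubling. HMGA1 itself fell in the siHMGA1 arrays, with a log2 signal of 12.62 to 12.85 in siCTRL and 10.11 to 10.57 in siHMGA1 by its brighter probe set, or 0.187 of the control signal. Its dimmer probe set had a log2 change of -0.90, or 0.535 of the control signal. The 8 arrays had medians of 6.07 to 6.12. All 8 markers of basal-like lines examined, such as VIM and CD44, lay above the array median in all 8 arrays, and of 10 luminal markers 7, such as KRT18 and GATA3, lay above it in all 8 and 3 (PGR, FOXA1 and CDH1) below it. The oestrogen receptor gene ESR1 was among those above it, with mean signals of 6.51 in siCTRL and 6.42 in siHMGA1 that lay close to the median. Of 12 measured leukocyte markers, whose cells are a main source of IL1 cytokines in tissue, 5 lay below the median in all 8 arrays and 6 above it. PTPRC, the pan-leukocyte antigen, was among those below it, at 4.67 ± 0.0981 (SD, n = 4) in siCTRL and 5.17 ± 0.0866 (SD, n = 4) in siHMGA1. The mean level over the leukocyte list was 6.06 to 6.22 in siCTRL and 6.10 to 6.17 in siHMGA1, and its part in the results was not tested. In a bulk sample, fewer cells expressing a gene and less RNA per cell cannot be told apart.

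IL1R1 and IL1B fell after HMGA1 silencing, and no member gene passed the test in the other direction on the deposited scale. Of the 21 probe sets, 3 passed limma's test as lower at an adjusted p of 0.05, one of IL1R1 and both of IL1B. They make up 14.3% of the member probe sets, against 10.4% of all probe sets that were lower and 11.7% that were higher, so the count for the family lay near the background. None of the 21 was higher at this threshold, while 4 were (IL18, 1 probe set of IL1RN and 2 of IL1RL1) when arrays were centred on housekeeping genes, which moved the median of all probe sets to 0.10. Of the 9 genes used for centring, TBP (-0.64) and HPRT1 (-0.34) were themselves lower, and SDHA (0.17) and YWHAZ (0.18) higher, at an adjusted p under 0.05. None of the 21 passed the stricter thresholds of the study's methods, an adjusted p under 1e-04 with a log2 change beyond 1.4, which 0.315% of all probe sets passed as lower and 0.0806% as higher. The median log2 change of the 21 was -0.02, beside 0.01 for all probe sets.

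The 4 arrays of each group did not overlap for 5 of the 21 probe sets. In 4 of them, both of IL1B and one each of IL1R1 and IL1RAP, every siHMGA1 array was lower, and in 1 of IL1RL1 every siHMGA1 array was higher. Among all probe sets the groups were apart in 11.9% with siHMGA1 lower and in 13.6% with siHMGA1 higher. Signals of 10 member probe sets lay below the array median in all 8 arrays, where background compresses differences, and 6 lay above it in all 8.

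**Figure D1:**
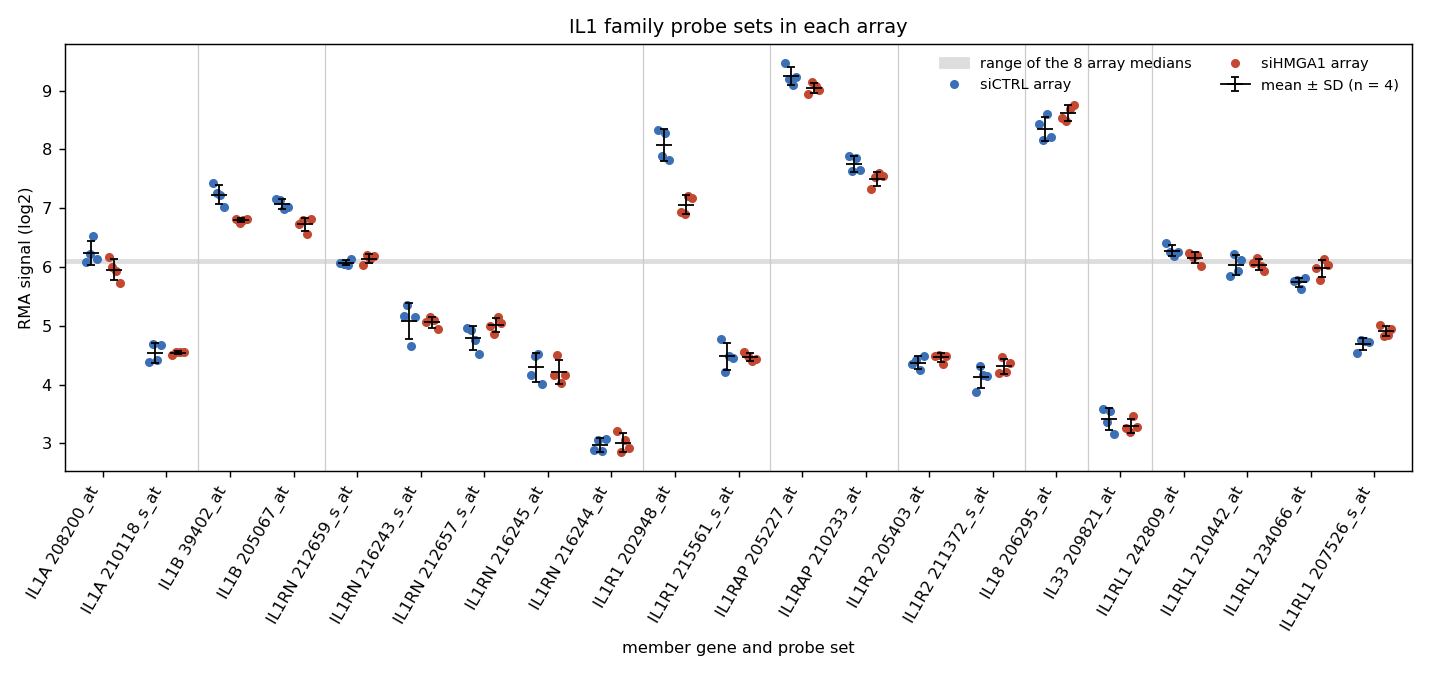
Log2 signal (vertical axis) of the 21 member probe sets, with a blue point per siCTRL array, a red point per siHMGA1 array, the mean ± SD of each group (n = 4) and a grey band for the range of the 8 array medians. The 4 siHMGA1 points of IL1R1 202948_at sit between 6.90 and 7.21, all below the siCTRL points at 7.81 to 8.33, while most other probe sets overlap.

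IL1R1, the receptor through which IL1A and IL1B signal, had the largest change of the family. The log2 signal of probe set 202948_at was 8.33, 7.88, 8.27 and 7.81 in siCTRL against 6.94, 6.90, 7.21 and 7.18 in siHMGA1. Every siHMGA1 array was below every siCTRL array, and the gap between the groups was wider than the spread within either of them. The mean was 8.07 ± 0.265 (SD, n = 4) in siCTRL and 7.06 ± 0.159 (SD, n = 4) in siHMGA1. The log2 change was -1.02 (standard error 0.124, 95% interval -1.29 to -0.75, adjusted p = 9.17e-05 from limma), a fall of 50.6% on the linear scale. A two-sided exact permutation test gave 0.0286, the lowest p possible with 4 arrays a group. The study names IL1R1 among genes regulated by HMGA1 on the basis of these arrays, so its change here is not independent evidence. The running text of the study gives no direction for IL1R1, and -1.02 does not reach the methods' log2 change of 1.4.

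The other IL1R1 probe set, 215561_s_at, read 4.78, 4.22, 4.48 and 4.45 in siCTRL and 4.55, 4.48, 4.40 and 4.44 in siHMGA1, below the array median throughout. Its log2 change was -0.02 (95% interval -0.24 to 0.21, adjusted p = 0.946 from limma), and the groups overlapped. With both probe sets averaged the log2 change of IL1R1 was -0.52 (adjusted p = 0.0018 from limma), so the size of the fall rests on the brighter probe set.

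IL1RAP, the co-receptor that IL1R1 needs to signal, was bright on both of its probe sets. Probe set 205227_at read 9.46, 9.19, 9.09 and 9.24 in siCTRL and 8.95, 9.14, 9.08 and 9.01 in siHMGA1, a log2 change of -0.20 (95% interval -0.39 to -0.02, adjusted p = 0.125 from limma). The highest siHMGA1 value lay within the siCTRL range. Probe set 210233_at read 7.88, 7.63, 7.85 and 7.65 in siCTRL and 7.32, 7.53, 7.60 and 7.54 in siHMGA1. Here the groups did not overlap, and the log2 change of -0.25 (95% interval -0.44 to -0.07) had an adjusted p of 0.0543 from limma, just outside the threshold. The mean of both probe sets gave -0.23 with an adjusted p of 0.0324 from limma, which passes it.

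IL1R2, the decoy receptor, stayed near the floor of the array. Its probe set 205403_at read 4.25 to 4.49 in siCTRL and 4.34 to 4.51 in siHMGA1, with a log2 change of 0.09 (95% interval -0.07 to 0.25). The other, 211372_s_at, read 3.87 to 4.31 and 4.19 to 4.46, with a log2 change of 0.19 (95% interval -0.03 to 0.40). Neither passed the test (adjusted p = 0.492 and 0.229 from limma), and all values were below the array median.

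IL1B, the cytokine that inflammasomes release, fell on both of its probe sets. Probe set 39402_at read 7.43, 7.26, 7.22 and 7.02 in siCTRL against 6.82, 6.75, 6.80 and 6.81 in siHMGA1. The siHMGA1 arrays lay close together and below all siCTRL arrays. The log2 change was -0.44 (standard error 0.083, 95% interval -0.62 to -0.25, adjusted p = 0.00223 from limma), a fall of 26.1%. Probe set 205067_at read 7.15, 7.13, 6.98 and 7.01 in siCTRL and 6.73, 6.79, 6.57 and 6.82 in siHMGA1. The groups were again apart, with a log2 change of -0.34 (standard error 0.0758, 95% interval -0.51 to -0.18, adjusted p = 0.00567 from limma), a fall of 21.2%. Both signals were above the array median in every array.

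IL1A, the ligand that is active without cleavage and can act from inside the cell, had lower siHMGA1 values without passing the test. Probe set 208200_at read 6.09, 6.21, 6.53 and 6.13 in siCTRL and 6.16, 5.996, 5.92 and 5.73 in siHMGA1. One siHMGA1 array lay within the siCTRL range, and the log2 change was -0.29 (95% interval -0.53 to -0.04, adjusted p = 0.0958 from limma). Probe set 210118_s_at stayed below the array median, at 4.38 to 4.69 and 4.51 to 4.56, with a log2 change of 0.00 (95% interval -0.17 to 0.18).

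IL1RN, the antagonist that competes with both ligands for IL1R1, has 5 probe sets, the most of any member. The brightest, 212659_s_at, read 6.06, 6.04, 6.04 and 6.13 in siCTRL and 6.03, 6.20, 6.13 and 6.19 in siHMGA1, a log2 change of 0.07 (95% interval -0.07 to 0.21, adjusted p = 0.552 from limma). The other 4 lay below the array median in all 8 arrays. Their log2 changes ran from -0.08 for 216245_at to 0.22 for 212657_s_at, whose adjusted p of 0.158 from limma was the smallest of the 5. All 5 had overlapping groups.

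**Figure D2:**
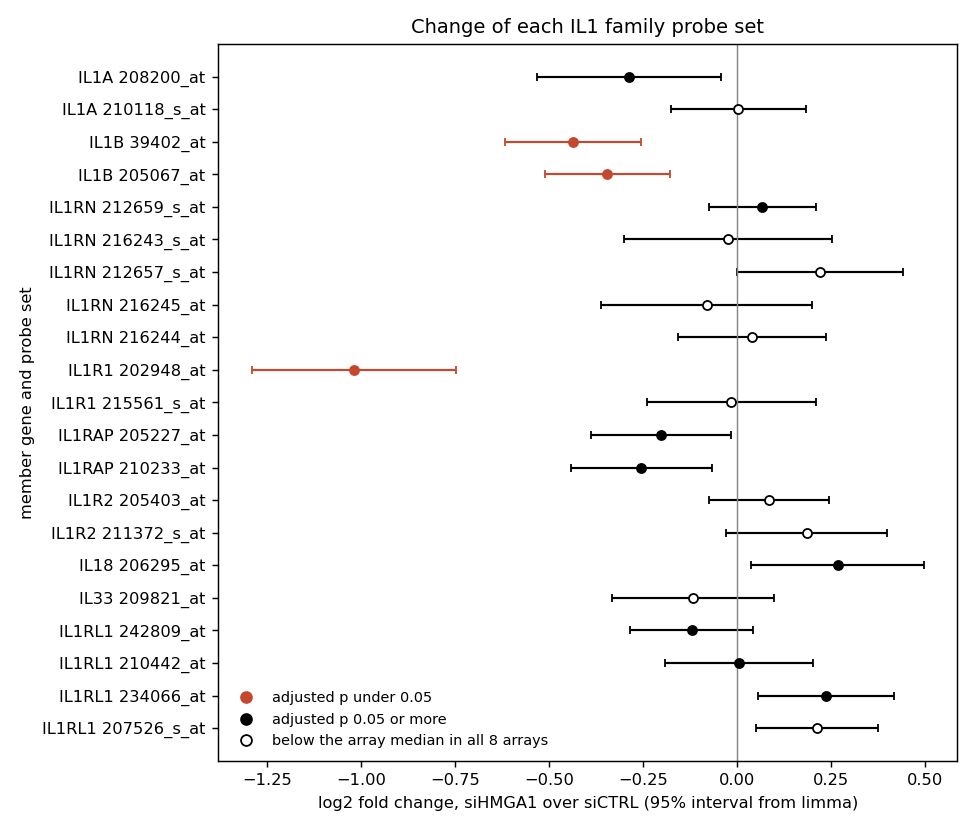
Log2 change (siHMGA1 minus siCTRL) of each of the 21 member probe sets with its 95% interval from limma, grouped by gene, in red where the adjusted p was under 0.05 and with an open circle where all 8 arrays were below the array median. IL1R1 202948_at at -1.02 lies apart from the rest, and the 2 IL1B probe sets at -0.44 and -0.34 follow.

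IL18, which signals through its own receptor pair and induces interferon gamma in lymphocytes, lay above the array median in all 8 arrays. Its single probe set 206295_at read 8.44, 8.15, 8.60 and 8.21 in siCTRL and 8.53, 8.49, 8.69 and 8.76 in siHMGA1. The groups overlapped in part, and the log2 change of 0.27 (95% interval 0.04 to 0.50) did not pass the test (adjusted p = 0.096 from limma). IL33, an alarmin kept in the nucleus and released by damaged cells, read 3.16 to 3.58 in siCTRL and 3.19 to 3.46 in siHMGA1, below the array median throughout, with a log2 change of -0.12 (95% interval -0.33 to 0.10, adjusted p = 0.489 from limma).

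IL1RL1, the IL33 receptor, is made as a membrane form and as a soluble decoy, and none of its 4 probe sets passed the test. Probe set 234066_at read 5.76, 5.77, 5.63 and 5.81 in siCTRL and 5.98, 5.77, 6.13 and 6.02 in siHMGA1, a log2 change of 0.24 (adjusted p = 0.0632 from limma). Probe set 207526_s_at read 4.54, 4.76, 4.74 and 4.72 against 5.004, 4.83, 4.84 and 4.95, with every siHMGA1 array higher and a log2 change of 0.21 (adjusted p = 0.061 from limma). Signals of 207526_s_at lay below the array median in all 8 arrays, and those of 234066_at in 7. The other probe sets, 242809_at and 210442_at, had log2 changes of -0.12 and 0.01 (adjusted p = 0.321 and 0.976 from limma), and their groups overlapped. Which form each probe set reads was not examined.

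Differences in change between members that act on the same receptor complex were tested with each gene's brightest probe set, as the per-array difference of log2 signals, in 4 pairs. IL1R1 changed by -1.10 relative to its decoy IL1R2 and by -0.82 relative to its co-receptor IL1RAP, each with all 4 siHMGA1 differences below all 4 siCTRL differences. Both reached p = 0.0286 in a two-sided exact permutation test, the lowest possible here, and 0.0571 after adjustment over the 4 pairs. IL1A changed by 0.15 relative to IL1B (exact permutation p = 0.429, adjusted 0.429). Relative to the antagonist IL1RN, IL1A changed by -0.35 (exact permutation p = 0.0857, adjusted 0.114). No pair passed the threshold after adjustment, and both IL1R1 pairs were already at the lowest p, so they could not have passed on their own. IL1R2 was below the array median in all 8 arrays, so the difference from it adds little to the change of IL1R1 itself.

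Many IL1 family genes lie in 2 groups on chromosome 2 (order from the RefSeq genes of GRCh38.p14), one of receptors and one of ligands. In the receptor group, in chromosomal order IL1R2, IL1R1, IL1RL2, IL1RL1, IL18R1 and IL18RAP, 1 of 6 genes, IL1R1, passed the test (adjusted p = 6.40e-05 from limma with 1 probe set per gene). Its direct neighbours had log2 changes of 0.09 for IL1R2 and 0.02 for IL1RL2, and IL18RAP had -0.24 (95% interval -0.46 to -0.02). IL1R2, IL1RL2, IL18R1 and IL18RAP were below the array median in all 8 arrays, where a change would be compressed. In the ligand group, 1 of 9 genes, IL1B, passed (adjusted p = 0.00125 from limma), and IL36G, IL36A, IL36B, IL36RN and IL1F10 were below the array median in all 8 arrays. The adjacent IL1A, whose change was not shown to differ from that of IL1B (the pair test above), had -0.29 and IL37, on the other side, 0.02. IL1RN, at the far end of the ligand group, had 0.07. Among all genes 14.7% were lower and 15.8% higher, so 1 of 6 and 1 of 9 lay near the background.

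**Figure D3:**
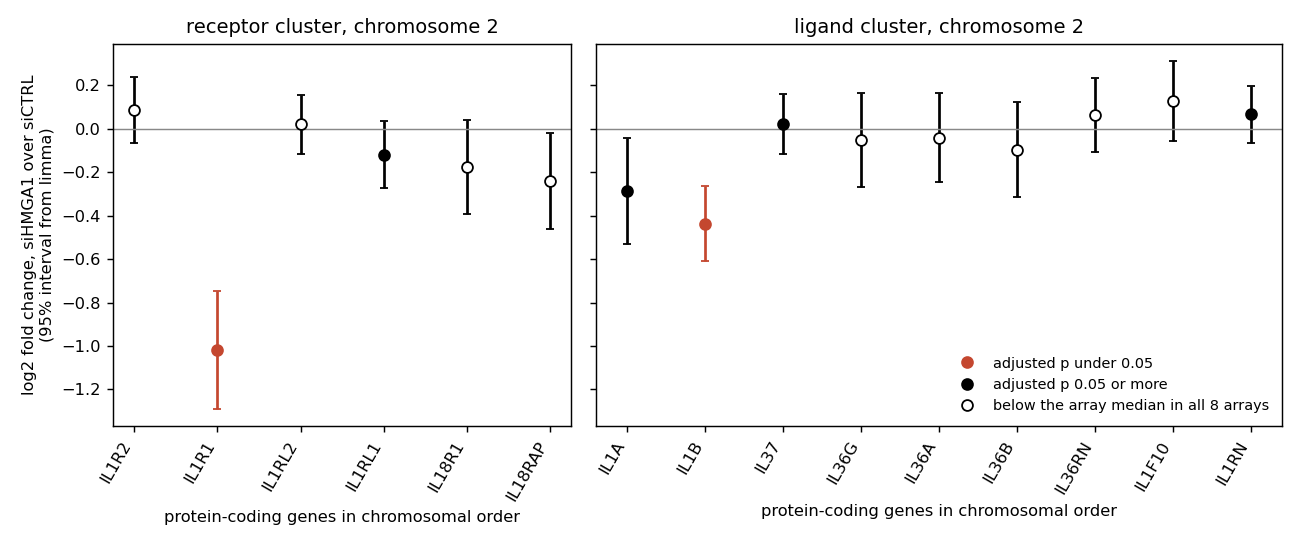
Log2 change with 95% interval for the genes of the receptor group and the ligand group on chromosome 2, placed in chromosomal order without scale, 1 probe set per gene. IL1R1 at -1.02 and IL1B at -0.44 are the genes whose adjusted p was under 0.05.

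Promoters of the members were read from the RefSeq gene starts of GRCh38.p14, as windows of 300 bases with 250 before and 50 after each start. Windows were given for 8 of the 9 members, IL18 being the other, and numbered 17 in all. HMGA1 binds runs of A and T, so runs of 6 or more of the letters A and T in any order, which read the same on both strands, were counted. Of the 17 windows, 14 held such a run, against 61.2% of all 35116 windows. Most members have several windows, and some overlap, as for IL1A and IL1RN, so the same run can count more than once. The 17 are therefore not independent, and the difference from all windows was not tested. The window of IL1B and 2 of the 4 windows of IL1R1 are shown because these genes changed, with the A and T runs in capitals. The 2 of IL1R1 are the extremes of its 4 windows, one with the most runs and one with none.

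IL1B, chr2:112836730-112837029, minus strand: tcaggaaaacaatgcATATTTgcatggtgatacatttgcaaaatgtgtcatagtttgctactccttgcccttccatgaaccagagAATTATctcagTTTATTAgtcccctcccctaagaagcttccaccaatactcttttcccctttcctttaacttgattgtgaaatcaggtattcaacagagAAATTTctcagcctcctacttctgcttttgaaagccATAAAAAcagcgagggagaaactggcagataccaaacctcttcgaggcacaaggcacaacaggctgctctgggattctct
IL1R1, chr2:102142056-102142355, plus strand: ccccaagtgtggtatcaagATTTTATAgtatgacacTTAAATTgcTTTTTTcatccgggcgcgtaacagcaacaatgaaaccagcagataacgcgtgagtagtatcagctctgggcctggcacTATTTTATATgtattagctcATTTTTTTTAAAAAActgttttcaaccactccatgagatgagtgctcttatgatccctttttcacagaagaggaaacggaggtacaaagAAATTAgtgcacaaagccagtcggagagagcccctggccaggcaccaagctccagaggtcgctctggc
IL1R1, chr2:102142496-102142795, plus strand: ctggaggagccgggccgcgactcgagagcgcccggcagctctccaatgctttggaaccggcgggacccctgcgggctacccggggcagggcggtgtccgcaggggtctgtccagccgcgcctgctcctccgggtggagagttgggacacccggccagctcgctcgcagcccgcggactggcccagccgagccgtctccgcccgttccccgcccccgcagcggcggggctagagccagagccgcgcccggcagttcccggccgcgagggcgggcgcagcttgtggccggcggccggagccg

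The IL1B window had a GC content of 42.3%, and 15.5% of all windows had less. It held 5 A and T runs, a number that 15.3% of all windows reached. The 2 IL1R1 windows shown lie close together on the same strand and differ widely. The upstream one had a GC content of 44.3% and 6 runs, the longest of 15 bases, a length found in 5.0% of all windows. The downstream one had a GC content of 77.7%, above that of 94.6% of windows, and no run. The other 2 IL1R1 windows had GC contents of 52.7% and 51.0% and 1 run each, a number that 61.2% of all windows reached. Members that did not pass the test also had windows with many runs, up to 8 in one of IL1RL1 and 6 in one each of IL1A and IL33. The arrays do not tell which IL1R1 start was used, and HMGA1 binding was not measured in these data.

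Genes around the receptors and ligands were followed in 5 lists at 1 probe set per gene, with 94 of 104 listed genes measured. By limma, 16 genes (17.0%) passed an adjusted p of 0.05 as lower and 16 (17.0%) as higher. Among all genes 14.7% were lower and 15.8% higher, so the shares for the pathway lay near the background. The remaining IL1 family genes, ligands of the IL36 group and further receptors, had 1 of 13 higher (7.69%) and none lower. That gene was IL1RAPL1, a neuronal relative of IL1RAP that acts at synapses, at 7.97 ± 0.142 (SD, n = 4) in siCTRL and 8.73 ± 0.0248 (SD, n = 4) in siHMGA1 (log2 change 0.75, adjusted p = 1.12e-05 from limma).

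Inflammasome and cytokine processing genes moved in both directions, with 4 of 20 lower (20%) and 4 higher (20%). The shares of all genes were 14.7% and 15.8%. CASP4, an inflammatory caspase that senses intracellular lipopolysaccharide, rose by 0.93 on the log2 scale, with a limma adjusted p of 3.41e-07 and a standard error of 0.0562. CASP1, the enzyme that cuts the IL1B and IL18 precursors, rose by 0.41 and CARD16, an inhibitor of CASP1, by 0.69. CARD16 arose as a copy of part of CASP1, so their probe sets may share transcripts. CARD8, a sensor that can activate CASP1, fell by 0.54, AIM2, a sensor of DNA in the cytosol, by 0.50, and CASP8, the apical caspase of death receptors, by 0.32 on the log2 scale.

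Receptor-proximal transducers had 3 of 17 genes lower (17.6%) and 6 higher (35.3%), against 14.7% and 15.8% of all genes. TAB2, an adaptor that links TRAF6 to the kinase TAK1, fell from 11.42 ± 0.057 (SD, n = 4) to 10.40 ± 0.0969 (SD, n = 4), a log2 change of -1.02 (adjusted p = 4.79e-07 from limma), or -0.59 as the mean of its probe sets. TIFA, a TRAF6-binding adaptor, and UBE2N, a ubiquitin-conjugating enzyme that works with TRAF6, had log2 changes of -0.26 and -0.16. Both passed at 1 probe set per gene, but UBE2N did not in the fit of all probe sets (adjusted p = 0.085 from limma). SQSTM1, a scaffold of TRAF6 and of selective autophagy, rose by 0.54, PELI2, a ubiquitin ligase of IRAK1, by 0.33 and IRAK2, a kinase of the receptor complex, by 0.29 on the log2 scale. With the probe sets of a gene averaged, 4 of the inflammasome and transducer genes named no longer passed, with log2 changes of -0.13 for CASP8, -0.11 for UBE2N, 0.15 for PELI2 and 0.11 for IRAK2, and CARD16 had 0.37.

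In the IKK, NF-kappaB and MAP kinase relay 3 of 19 genes were lower (15.8%) and 4 higher (21.1%), against 14.7% and 15.8% of all genes. MAP2K6, a kinase upstream of p38, had a log2 change of -0.64 (-0.35 as the mean of its probe sets), REL, an NF-kappaB subunit, of -0.50 and CHUK, which encodes IKK-alpha, of -0.21. In the fit of all probe sets used for the members, CHUK did not pass (adjusted p = 0.069 from limma). NFKBIZ, a nuclear co-regulator that IL1 induces, had 0.36, IKBKG, the regulatory subunit of IKK, 0.35 and MAP2K4, a kinase upstream of JNK, 0.32.

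IL1-inducible target genes had 6 of 25 lower (24%) and 1 higher (4%), against 14.7% and 15.8% of all genes. The median log2 change over the list was -0.02. IL11, a cytokine of the IL6 family, fell from 9.74 ± 0.0671 (SD, n = 4) to 7.93 ± 0.087 (SD, n = 4), or -1.81 on the log2 scale (limma standard error 0.0642, adjusted p = 1.2e-08). CXCL1 and CXCL2, chemokines that attract neutrophils, had log2 changes of -1.18 (adjusted p = 1.67e-05) and -0.91 (adjusted p = 5.15e-05) from limma. The CXCL2 value comes from the brightest of its 3 probe sets, and their mean gave -0.30. The other 3 that fell were CXCL8, a further neutrophil chemokine (-0.82), PLAU, the urokinase that activates plasminogen (-0.81), and IER3, an early response gene (-0.65). For CXCL8 this was the brighter of its 2 probe sets. The dimmer one had -0.29 and did not pass (adjusted p = 0.367 from limma), and their mean gave -0.56. MMP1, an interstitial collagenase, rose by 0.29 on the log2 scale. Of the 18 that did not pass, IL6 and PTGS2 had log2 changes of 0.20 and 0.01 (adjusted p = 0.0781 and 0.983 from limma).

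**Figure D4:**
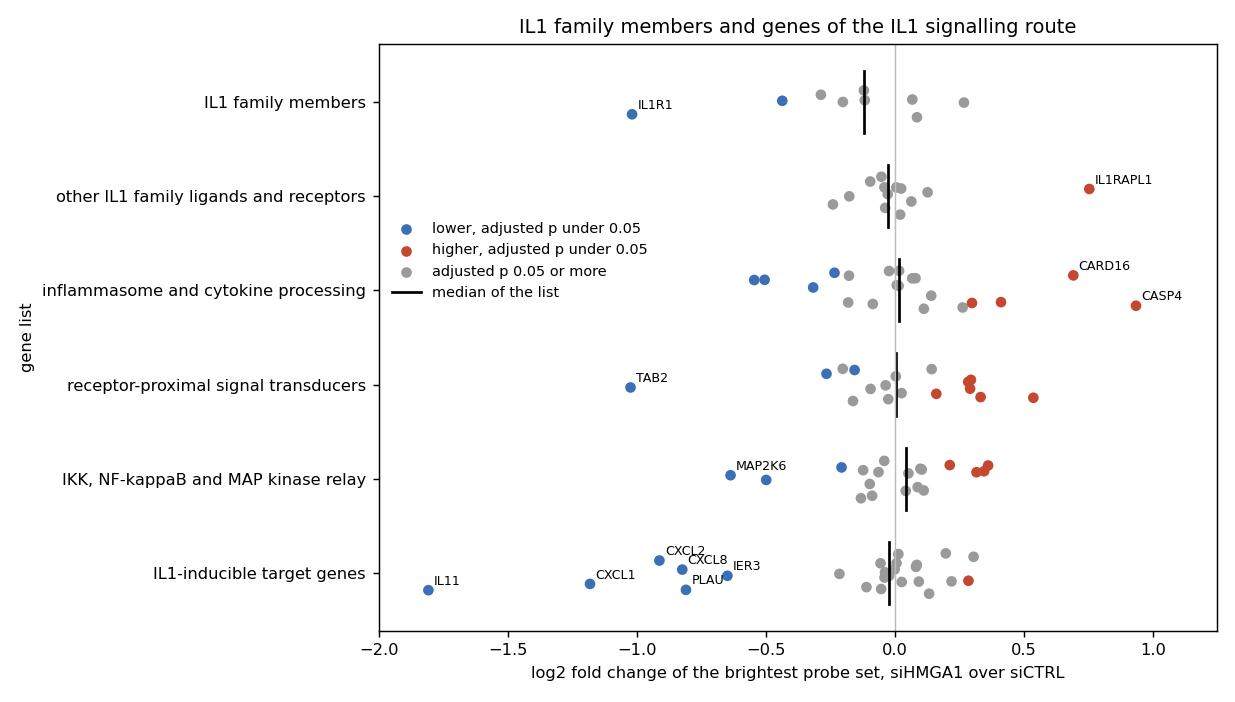
Log2 change (siHMGA1 over siCTRL) of the 9 members and of each measured gene in the 5 lists around them, 1 probe set per gene, in blue or red where lower or higher at an adjusted p under 0.05, with a bar at each list's median and names on the larger changes. IL11 at -1.81 and CASP4 at 0.93 are the extremes.

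The genes most like IL1R1 across the 8 arrays, by Pearson correlation of the brightest probe set of each gene with 202948_at, were PGGT1B and ERICH1 (both 0.996) and MSI2, NHLRC3 and SOS2 (all 0.995). All 5 were lower in siHMGA1, with log2 changes between -0.93 for ERICH1 and -0.54 for SOS2. The 8 points share the 2 groups, so any gene that fell evenly in siHMGA1 correlates with IL1R1, and the values are a description.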

How the data were processed

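Total RNA of 8 MDA-MB-231 samples (4 siCTRL, 4 siHMGA1) was hybridised to Affymetrix arrays. Deposited values are log2 signals; the authors used Affymetrix's Expression Console and then RMA, which corrects background, quantile-normalizes the arrays and summarises each probe set, so differences in total signal are removed. The methods' sections differ on replicates (4 or 3), and the labels give 4 a group. All 8 arrays were used, and their number limits the precision.

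Gene names came from the platform annotation. Of 54675 probe sets, 62 were controls, 41091 had 1 gene, 1801 several and 11721 none here. All 54613 were fitted with limma (version 3.58.1, R 4.3.3, default settings, Benjamini-Hochberg over all). Lists used the brightest probe set of each of 19775 genes. Named list genes were up to 3 per list and direction that changed most among those past an adjusted p of 0.05; CXCL8, PLAU, IER3, IL6 and PTGS2 were added after their values were seen. Members and lists were chosen with earlier results of these data known. The steps were tested on simulated data. Alternatives were 1 or the mean probe set per gene, a replicate block, a filter on a mean under 6, cyclic loess, centring on housekeeping genes, a trended robust fit, array weights, the methods' t-test, leaving out shared probe sets and leaving out each array.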

Additional observations from a re-analysis of the deposited data

Results flagged for a closer look

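The siHMGA1 arrays of IL1R2 probe set 205403_at held a value far from the others for their spread. Replicate 3 read 4.34, while the other 3 read 4.49 to 4.51, all below the array median. This was 1 of 42 groups of 4 examined, and chance flags about 1 in 20. Leaving out replicates one at a time kept the log2 change of this probe set between 0.04 and 0.12.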

How the results depend on the processing

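The falls of IL1R1 202948_at and of both IL1B probe sets kept their direction and an adjusted p under 0.05 from limma (for the methods' t-test, its own adjusted p) under every alternative run on them, and leaving out 1 array gave -1.11 to -0.93 for IL1R1, -0.51 to -0.37 for IL1B 39402_at and -0.38 to -0.29 for 205067_at. Sample titles use the same experiment numbers in both groups, but do not say whether same-numbered arrays were paired. Same-number correlations of deviations were 0.05, 0.22, 0.07 and -0.14, which cannot settle this on normalized values. With the replicate number as a block, 3 member probe sets were lower and 0 higher, as without it. IL1RAP 210233_at passed with dim probe sets left out (adjusted p = 0.0289), with cyclic loess (0.0374), with the trended robust fit (0.0458) and without siCTRL replicate 2 or 4 (0.0401 and 0.0496).

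Centring on housekeeping genes moved the median of all probe sets from 0.01 to 0.10 and the higher count from 0 to 4 (IL18 0.35, IL1RN 212657_s_at 0.31, IL1RL1 234066_at 0.32 and 207526_s_at 0.30). The 9 centring genes were not all stable, with 2 lower and 2 higher themselves. Leaving out 1 array gave 0 to 1 higher, the 1 being IL18 without siCTRL replicate 3 (0.35) or IL1RL1 234066_at without siHMGA1 replicate 2 (0.30). Under that centring IL1-inducible targets had 4 higher and inflammasome genes 2 lower. The targets had 3 higher with dim probe sets left out or with array weights.

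Without siHMGA1 replicate 1, 3 pairs had an adjusted exact permutation p of 0.0381. The adjusted value depends on how many pairs reach the lowest p, so it adds no evidence for any single pair. Leave-one-out ranges were -1.23 to -0.997 for IL1R1 minus IL1R2, -0.90 to -0.70 for IL1R1 minus IL1RAP and -0.46 to -0.25 for IL1A minus IL1RN.

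Signs that turned were those of changes near 0 or of averaged probe sets, none of them past the test. Averaging gave 0.084 for IL1RL1, against -0.12 for 242809_at. Cyclic loess gave -0.0049 for IL1A 210118_s_at and -0.014 for IL1RL1 210442_at. Housekeeping centring gave 0.061 for IL1RN 216243_s_at, 0.0045 for 216245_at and 0.069 for IL1R1 215561_s_at. Array weights gave -0.020, 0.011 and -0.030 for IL1A 210118_s_at, IL1R1 215561_s_at and IL1RL1 210442_at. Leaving out 1 array gave -0.048 to 0.054 for IL1A 210118_s_at, -0.17 to 0.068 for IL1RN 216243_s_at, -0.026 to 0.092 for 216244_at, -0.10 to 0.084 for IL1R1 215561_s_at and -0.054 to 0.070 for IL1RL1 210442_at. The cause was not tested. Low signals limit 10 of the 21 probe sets.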
